A study of Mus musculus with 12 samples.

Results

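The 10 genes described here encode AMP-activated protein kinase (AMPK) subunits and genes around it that sense or set the energy state of a cell. They were taken by symbol, as Prkaa1, Prkaa2, Prkab1, Prkab2, Prkag1, Prkag2, Stk11, Ppargc1a, Ppargc1b and Acacb, and all 10 were found among the 21705 genes listed. RNA was sequenced from the hearts of female FVB mice, with 3 libraries in each of 4 groups. The control group had water, and the drug groups were treated for 14 days with a daily dose per kg of body weight of 40 mg (sunitinib), 30 mg (sorafenib) or 50 mg (erlotinib). The labels used here name no age, allele or other treatment. Sunitinib and sorafenib inhibit VEGF and PDGF receptors among other kinases, erlotinib inhibits the EGF receptor, and AMPK is known as an off-target of sunitinib. The question was whether RNA levels of this kinase and its partners differ between hearts exposed to these drugs. Kinase activity and phosphorylation were not measured by these data.

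AMPK is a complex of a catalytic alpha subunit, a scaffold beta subunit and a gamma subunit that binds AMP, ADP and ATP. When AMP rises, the kinase LKB1 (Stk11) phosphorylates the alpha subunit, and active AMPK turns on pathways that make ATP and turns off those that use it. In heart muscle it phosphorylates acetyl-CoA carboxylase 2 (Acacb), whose product malonyl-CoA holds back entry of fatty acids into mitochondria. The coactivators PGC-1alpha (Ppargc1a) and PGC-1beta (Ppargc1b) raise transcription of mitochondrial genes.

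Libraries held 14.3 to 16.5 M expected counts (M, 1e+06). All 12 cardiomyocyte markers checked were tested, and their summed level was 125174 to 135698 CPM (counts per 1e+06 counts of the library) in the 12 libraries. Marker sums here and below take every listed marker and are not TMM-normalised. Levels of single genes are TMM-normalised CPM. Of 12 skeletal muscle markers 3 were tested, and all 12 together summed to 10.6 to 20.3 CPM. A score of atrium and conduction markers, the mean over markers of log2 CPM minus each marker's own mean, was 0.59 to 1.00 in control and differed within the drug groups. It was 1.19, 1.38 and -1.26 in Sunitinib_1368, Sunitinib_1369 and Sunitinib_1370, and -1.67, 0.90 and -1.55 in Sorafenib_1371, Sorafenib_1372 and Sorafenib_1373. In Erlotinib_1374, Erlotinib_1375 and Erlotinib_1376 it was 0.68, -0.46 and -1.59.

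Control hearts held RNA of every one of the 10 genes. Levels between genes are compared as TPM, which divides by transcript length. Prkag1, the most widespread gamma subunit, was highest at 67.8 ± 3.49 TPM (SD, n = 3), followed by Stk11 at 56.4 ± 5.36 TPM. Next came Ppargc1a at 41.5 ± 15.2 TPM, Acacb at 37.0 ± 5.54 TPM and Prkaa2 at 29.6 ± 2.26 TPM. The beta subunits followed, with Prkab1 at 24.8 ± 3.09 TPM and Prkab2 at 12.2 ± 1.72 TPM. Prkag2 was at 9.98 ± 1.09 TPM, Prkaa1 at 6.59 ± 0.756 TPM and Ppargc1b lowest at 5.05 ± 0.782 TPM. Control ranges of neighbours overlapped from Stk11 down to Prkab1, between Prkab2 and Prkag2, and between Prkaa1 and Ppargc1b. They did not overlap between Prkag1 and Stk11, between Prkab1 and Prkab2, or between Prkag2 and Prkaa1.

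None of the 10 genes passed edgeR's test in any comparison, and with DESeq2 Ppargc1a alone passed, in erlotinib against sunitinib. Each drug was set against control and each drug against each other with edgeR's quasi-likelihood test (two-sided, Benjamini-Hochberg adjusted p under 0.05 over the 13440 genes tested). In sunitinib against control 0 of 10 passed, where 0% of all tested genes did. In sorafenib against control 0 of 10 passed, where 0.00744% of all genes did, and in erlotinib against control 0 of 10, where 0.29% did. Between drugs the count was also 0 of 10, where 0.0372% of all genes passed in sunitinib against sorafenib, 11.9% in erlotinib against sunitinib and 2.7% in erlotinib against sorafenib. A 4-group test for any difference passed 0 of 10, where 5.45% of all genes passed. At an unadjusted p under 0.05, 2 of 10 were found in sunitinib against control (10.9% of all genes), 2 in sorafenib against control (12.4%), 0 in erlotinib against control (15.6%), 0 in sunitinib against sorafenib (9.86%), 2 in erlotinib against sunitinib (28.1%), 0 in erlotinib against sorafenib (19.4%) and 0 in the 4-group test (23.3%). DESeq2 passed 1 of 10 in erlotinib against sunitinib, where it passed 14.4% of all genes, and 0 in each other comparison. Limma on the authors' scaled signal passed 0 in each. In these whole-heart samples, fewer cells of a type and less RNA per cell cannot be told apart.

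**Figure D1:**
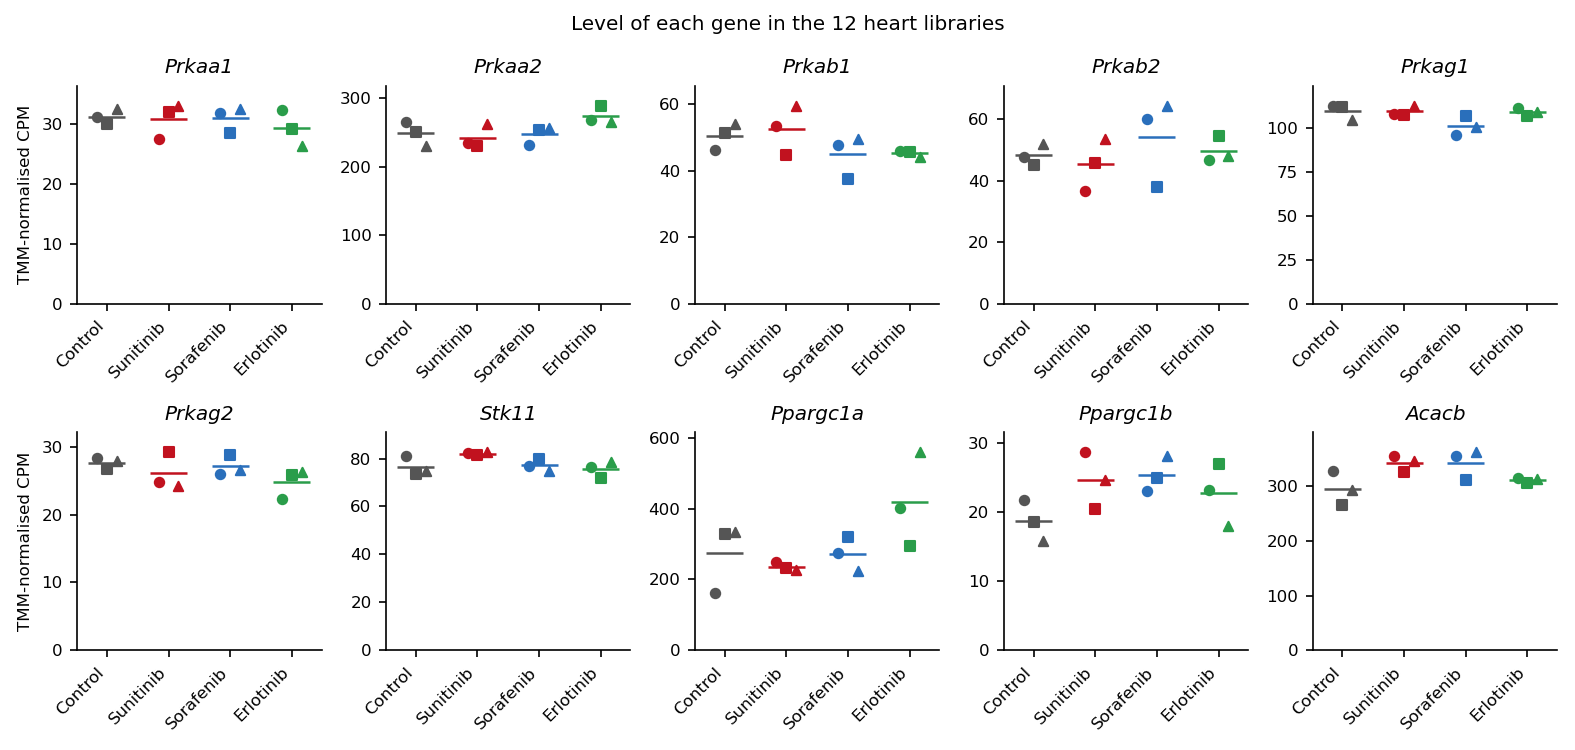
TMM-normalised CPM of each gene (vertical axis, from 0) in the 12 libraries by group (horizontal axis); points are libraries, with circle, square and triangle for the lowest, middle and highest library number of a group, and bars are group means. Ppargc1a spreads from 162 to 559 CPM, and the sunitinib libraries of Stk11 lie at 81.5 to 82.6 CPM, above the other groups.

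No difference of the catalytic subunits passed. Prkaa2, the alpha subunit that predominates in heart and skeletal muscle, was at 266, 251 and 230 CPM in control and 235, 230 and 263 CPM in sunitinib. It was at 232, 253 and 257 CPM in sorafenib and 268, 289 and 265 CPM in erlotinib. Every erlotinib library was above every sunitinib and sorafenib library, while control overlapped erlotinib only through Control_1365. The log2 fold change of Prkaa2 was 0.14 ± 0.08 in erlotinib against control (edgeR adjusted p = 0.420) and 0.18 ± 0.08 in erlotinib against sunitinib (adjusted p = 0.153). In sunitinib against control it was -0.04 ± 0.08, with a 95% interval of -0.20 to 0.13, and in sorafenib -0.01 ± 0.08. Prkaa1, the more widely expressed alpha subunit, ran from 26.3 to 33.0 CPM, with log2 fold changes against control of -0.02 ± 0.09 in sunitinib, -0.01 ± 0.09 in sorafenib and -0.09 ± 0.09 in erlotinib.

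Prkaa2 made up 80.0% to 85.0% of the summed TPM of both alpha subunits in the 12 libraries. The group means were 81.8% ± 1.55 in control, 81.6% ± 1.34 in sunitinib, 81.8% ± 1.44 in sorafenib and 84.1% ± 1.44 in erlotinib (SD, n = 3). Over the 4 groups these shares gave an exact permutation p of 0.209, or 0.262 adjusted over the 5 shares examined.

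The beta subunits tie the complex together and bind glycogen. Prkab1 was at 46.1, 51.4 and 54.0 CPM in control and at 46.0, 45.6 and 44.0 CPM in erlotinib, so the groups did not overlap although they nearly touched. The log2 fold change was -0.16 ± 0.12 (edgeR adjusted p = 0.537). Prkab2, the beta subunit prominent in muscle, was at 47.8, 45.3 and 52.2 CPM in control and 36.8, 46.0 and 53.6 CPM in sunitinib. In sorafenib it was at 60.1, 37.9 and 64.5 CPM, and in erlotinib at 46.9, 54.5 and 48.2 CPM. The sorafenib library with the lowest value, Sorafenib_1372, was the one of that group with the high atrial score. Prkab2 had a log2 fold change of 0.16 ± 0.18 in sorafenib (adjusted p = 0.772) and 0.04 ± 0.18 in erlotinib against control. With the atrial score as a covariate these values were -0.13 and -0.16, with the opposite sign, and neither passed. Whether atrial tissue sets the Prkab2 values was not tested.

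Prkab2 made up 25.7% to 40.0% of beta subunit TPM, the widest range among the subunits. Its mean share was 32.9% ± 1.62 in control, 30.4% ± 4.42 in sunitinib, 37.6% ± 3.36 in sorafenib and 35.9% ± 2.40 in erlotinib (SD, n = 3). The exact permutation p over the 4 groups was 0.0770, or 0.249 adjusted over the 5 shares.

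The gamma subunits carry the nucleotide binding sites. Prkag1 ran from 96.0 to 113 CPM, and its log2 fold change against control was -0.12 ± 0.06 in sorafenib (edgeR adjusted p = 0.444) and within 0.01 of 0 in the other drugs. RSEM gave Prkag1 fractional counts in 12 of 12 libraries, so some of its reads were also assigned elsewhere and its level is less certain, while the other 9 genes had whole counts throughout. Prkag2, whose mutations cause a glycogen storage cardiomyopathy, was at 28.4, 26.7 and 27.9 CPM in control and lower in every erlotinib library, at 22.3, 25.8 and 26.3 CPM. The log2 fold change was -0.16 ± 0.09 (adjusted p = 0.438). Prkag2 made up 10.3% to 13.9% of gamma subunit TPM, with Prkag3, the gamma subunit of skeletal muscle, included in the sum (exact permutation p = 0.150, adjusted 0.249).

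Among the 6 subunits, the log2 fold changes against control ran from -0.17 to 0.16 over the 3 drugs. Their medians were -0.03 in sunitinib, -0.02 in sorafenib and -0.05 in erlotinib, against 0.00173, -0.00069 and -0.0076 over all tested genes. The lowest and highest bounds of their 95% intervals were both for Prkab2. Its interval ran from -0.50 to 0.31 in sunitinib and from -0.24 to 0.56 in sorafenib. For Prkag1 in sunitinib the interval ran from -0.13 to 0.12.

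**Figure D2:**
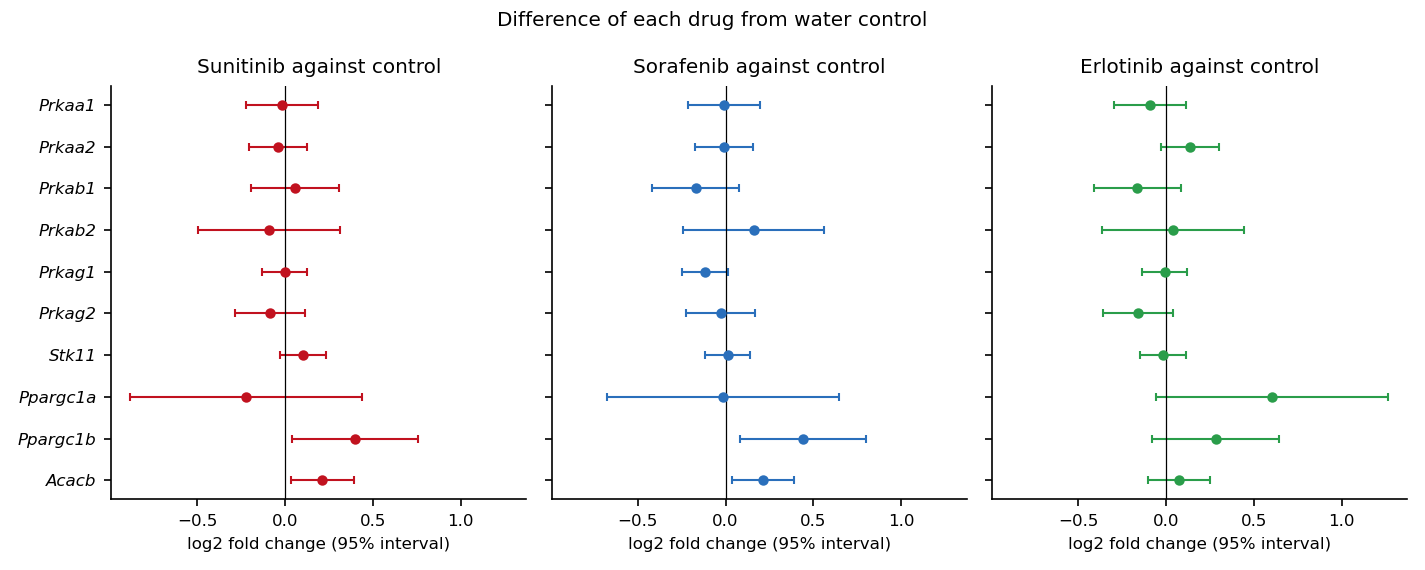
Log2 fold change of each gene for each drug against control (horizontal axis), with lines for the 95% interval of the fit, not adjusted for the number of genes. Intervals of Ppargc1b and Acacb lie above 0 in sunitinib and sorafenib, and none of the values passed after adjustment.

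Stk11 encodes LKB1, the main kinase upstream of AMPK in heart. Its libraries were close together, with a within-group SD of 0.053 on the log2 scale, which is at the 2.40th percentile of all tested genes. It was at 80.9, 73.6 and 75.0 CPM in control and at 82.1, 81.5 and 82.6 CPM in sunitinib. All 3 sunitinib libraries were therefore above all 3 control libraries, by 0.10 ± 0.06 on the log2 scale (edgeR adjusted p = 0.579). Sunitinib also lay above every sorafenib and every erlotinib library. Stk11 was at 76.7, 79.7 and 75.0 CPM in sorafenib and 76.5, 72.0 and 78.4 CPM in erlotinib. Stk11 was the 1 gene of 10 with no overlap in sunitinib against control, where 14.6% of all tested genes had none.

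In sorafenib against control 1 of 10 genes had no overlap, Ppargc1b (16.3% of all genes), and in erlotinib 2 of 10, Prkab1 and Prkag2 (20.6%). Between sunitinib and sorafenib 2 of 10 had none, Prkag1 and Stk11 (14.6%). Between erlotinib and sunitinib 4 of 10 had none (33.7%), with Prkaa2 and Ppargc1a higher and Stk11 and Acacb lower in erlotinib. Between erlotinib and sorafenib Prkaa2 alone had none (25.2%).

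Ppargc1a, encoding the coactivator that raises mitochondrial biogenesis, varied most among the 10 genes. It was at 162, 328 and 334 CPM in control and at 248, 231 and 228 CPM in sunitinib. In sorafenib it was at 275, 319 and 223 CPM, and in erlotinib at 400, 294 and 559 CPM. Erlotinib libraries were all above the sunitinib libraries, while 1 control library, Control_1365, was below every other library. The within-group SD of 0.40 on the log2 scale was at the 87.5th percentile of all tested genes, whose median was 0.15.

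In erlotinib against sunitinib Ppargc1a was higher by 0.83 ± 0.30 on the log2 scale, a 1.77-fold difference with a 95% interval of 1.12 to 2.81 (edgeR adjusted p = 0.103). DESeq2 gave an adjusted p of 0.0436, where 14.4% of all genes passed. The edgeR fit without Control_1365 gave 0.0277, where 12.5% of all genes passed. The other leave-one-out adjusted p values ran from 0.0705 without Erlotinib_1375 to 0.310 without Erlotinib_1376. Against control the log2 fold change was 0.60 ± 0.29 in erlotinib (adjusted p = 0.365), -0.22 ± 0.29 in sunitinib (adjusted p = 0.834) and -0.01 ± 0.29 in sorafenib (adjusted p = 0.994). These values moved with single libraries: with 1 library left out, erlotinib ran from 0.33 without Control_1365 (0.34 without Erlotinib_1376) to 0.80 without Erlotinib_1375. In the same way sunitinib ran from -0.50 without Control_1365 to -0.06 without Control_1367 (-0.08 without Control_1366). Ppargc1a made up 80.6% to 94.6% of the TPM of both PGC-1 genes (exact permutation p over the 4 groups = 0.379, the same after adjustment).

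The promoter of Ppargc1a is shown because it is the most variable of the genes and is known for induction through cAMP response elements. It is the 250 bases before the start of the RefSeq transcript (GRCm38.p6, chr5:51567726-51567975, minus strand). Capitals mark CGTCA, the core TGACG of a cAMP response element read on the other strand, which begins 49 bases before the start.
Ppargc1a: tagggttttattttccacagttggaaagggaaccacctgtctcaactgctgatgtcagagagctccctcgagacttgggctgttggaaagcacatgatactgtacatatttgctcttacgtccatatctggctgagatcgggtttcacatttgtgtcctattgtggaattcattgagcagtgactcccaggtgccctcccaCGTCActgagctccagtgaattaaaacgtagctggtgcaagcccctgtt
The core TGACG, on either strand, stood in 17.8% of 32851 promoter windows of this length, and in those of Ppargc1a, Prkaa2, Prkag1 and Stk11. RefSeq windows were found for 9 of the 10 genes. The full element TGACGTCA was in 1.55% of all windows and in none of these genes' windows.

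Ppargc1b, the related coactivator PGC-1beta, was at 21.8, 18.5 and 15.9 CPM in control and at 28.7, 20.5 and 24.7 CPM in sunitinib. In sorafenib it was at 23.1, 24.9 and 28.1 CPM, and in erlotinib at 23.2, 27.0 and 18.0 CPM. Sorafenib lay above control in every library, and sunitinib overlapped control only through Sunitinib_1369. The log2 fold change was 0.44 ± 0.17 in sorafenib (edgeR adjusted p = 0.309), 0.40 ± 0.17 in sunitinib (adjusted p = 0.418) and 0.28 ± 0.17 in erlotinib (adjusted p = 0.444). These comparisons share the control libraries.

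Acacb, which encodes acetyl-CoA carboxylase 2 at the mitochondrial outer membrane, was at 328, 266 and 292 CPM in control. It was at 355, 326 and 345 CPM in sunitinib, 355, 311 and 362 CPM in sorafenib and 315, 306 and 314 CPM in erlotinib. Control_1365 overlapped the sunitinib and sorafenib libraries, and the other control libraries lay below all of them. The log2 fold change was 0.21 ± 0.08 in sunitinib (edgeR adjusted p = 0.381), 0.21 ± 0.08 in sorafenib (adjusted p = 0.315) and 0.08 ± 0.08 in erlotinib (adjusted p = 0.712), again against the same control libraries.

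White fat markers, 9 of 12 tested with none at 0, summed to 136 to 153 CPM in control, 106 to 190 CPM in sunitinib, 86.2 to 127 CPM in sorafenib and 107 to 183 CPM in erlotinib. Macrophage markers, 11 of 11 tested with none at 0, summed to 433 to 481 CPM in control, 323 to 486 CPM in sunitinib and 267 to 355 CPM in sorafenib. Erlotinib libraries had 374 to 475 CPM of them. Fibroblast markers, 12 of 12 tested with none at 0, summed to 1850 to 2543 CPM in control, 1502 to 2427 CPM in sunitinib, 1468 to 2037 CPM in sorafenib and 1650 to 1904 CPM in erlotinib. Endothelial markers, 12 of 12 tested, summed to 1184 to 1418 CPM in control and at most 1556 CPM in sorafenib. The lowest sorafenib sum lay below the highest control sum. Against control, 6 of 12 in sorafenib had an unadjusted p under 0.05, where 12.4% of all genes did, and 0 passed. Their log2 fold changes were mixed, with 8 above 0 and 4 below, from -1.06 to 0.78. The part of these cells in the Acacb and Ppargc1b values was not tested.

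Acacb made up 94.2% to 97.5% of the TPM of both acetyl-CoA carboxylase genes, the other being Acaca, the cytosolic enzyme. The mean share was 95.3% ± 1.05 in control, 96.1% ± 1.08 in sunitinib, 96.6% ± 0.329 in sorafenib and 97.0% ± 0.423 in erlotinib (SD, n = 3). Sorafenib and erlotinib libraries all lay above the control libraries, which gave the smallest exact permutation p that 3 against 3 allows, 0.1. Over the 4 groups the exact permutation p was 0.115, or 0.249 adjusted. The promoter window of Acacb is shown because Acacb had the smallest p of the 10 genes in sunitinib against control. It is the 250 bases before the RefSeq start (GRCm38.p6, chr5:114165268-114165517, plus strand), with TATAAA in capitals, beginning 34 bases before the start.
Acacb: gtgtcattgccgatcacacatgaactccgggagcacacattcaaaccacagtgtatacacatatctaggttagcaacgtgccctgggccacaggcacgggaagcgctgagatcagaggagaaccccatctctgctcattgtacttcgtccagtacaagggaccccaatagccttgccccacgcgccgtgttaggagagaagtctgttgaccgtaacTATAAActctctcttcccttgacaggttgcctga
TATAAA, on either strand, stood in 12.4% of all windows and among these genes only in that of Acacb. The element TCAAGGTCA, bound by estrogen-related receptors, stood in 0.387% of all windows and in none of these genes' windows.

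**Figure D3:**
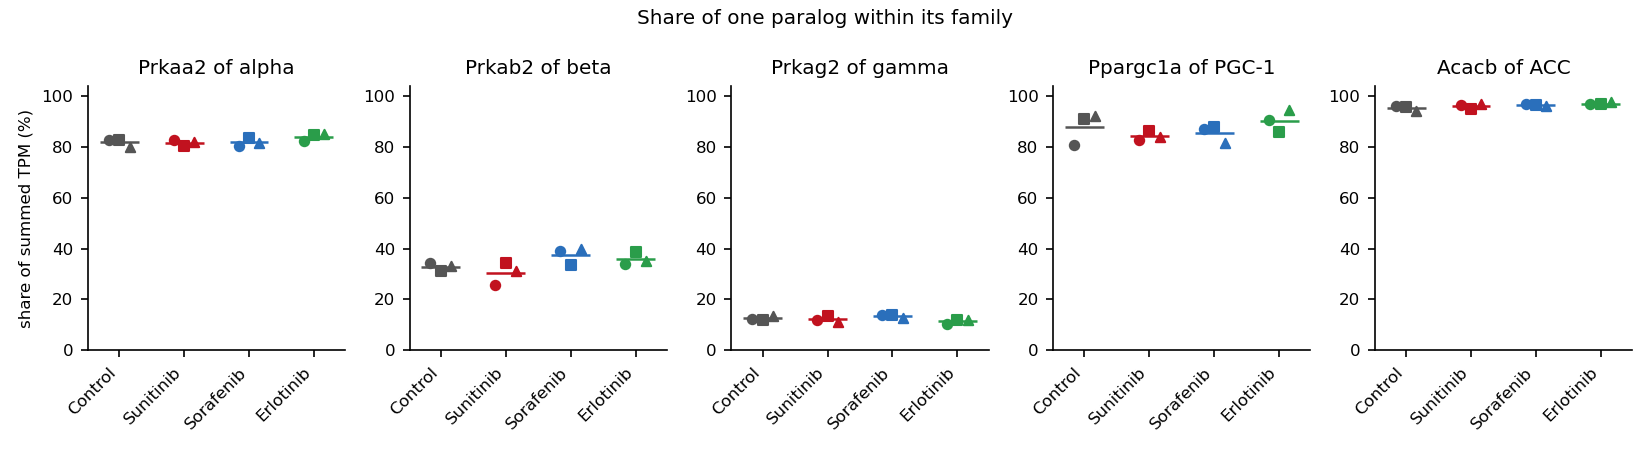
Share of summed TPM (vertical axis, percent) that 1 paralog takes within its family in each library, by group; points are libraries and bars are group means. Prkaa2, Ppargc1a and Acacb hold most of their families in every library, and Prkab2 spreads from 25.7% to 40.0%.

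Over the 12 libraries, the genes whose log2 CPM followed these most closely were chosen by Pearson r from 9760 genes that averaged at least 5 CPM. For Ppargc1a they were Plxna2, a semaphorin receptor (r = 0.92), Sox17, an endothelial transcription factor (r = 0.90), and Hnrnpa3, an RNA-binding protein (r = 0.90). Without Control_1365 and Erlotinib_1376, the extremes of Ppargc1a, these were 0.80, 0.76 and 0.94. Prkaa2 was followed most closely by Usp47, a deubiquitinase (r = 0.90), Tsen15, of the tRNA splicing endonuclease (r = 0.88), and Psme3, a proteasome activator (r = 0.87). Acacb was followed by Prr14 (r = 0.92), Nab2, a repressor of EGR factors (r = 0.91), and Llgl1, a polarity protein (r = 0.91). The 12 points share libraries, groups and normalization, and the genes were picked for high r.

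Around these 10 genes, 8 further lists of AMPK and PGC-1 signalling held 134 listed genes, of which 131 were tested. In each drug against control 0 of 131 passed in edgeR and in limma, with 11 at an unadjusted p under 0.05 in sunitinib (8.40%, beside 10.9% of all genes), 17 in sorafenib (13.0% beside 12.4%) and 25 in erlotinib (19.1% beside 15.6%). DESeq2 passed 1 in sunitinib, Gys1 (0.763%, where 82 of all 13440 genes passed). It passed 2 in sorafenib, Gys1 and Ppm1e (1.53% beside 1.30% of all genes), and 4 in erlotinib, Nuak1, Ppm1e, Snrk and Stradb (3.05% beside 2.73%). In erlotinib against sunitinib 14 of 131 passed, 8 higher and 6 lower in erlotinib, or 10.7% beside the 11.9% of all genes. In sunitinib against sorafenib 0 of 131 passed in edgeR, with 16 at an unadjusted p under 0.05 (12.2% beside 9.86% of all genes), and 2 in DESeq2 (1.53% beside 1.03%). In erlotinib against sorafenib 2 of 131 passed, Gys1 lower and Gatsl3 higher in erlotinib, or 1.53% beside the 2.7% of all genes. The median log2 fold change of the 131 in erlotinib against sunitinib was 0.0028, against -0.0074 over all genes.

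The list of upstream kinases and regulators of AMPK held 16 genes, with the gamma subunit Prkag3 counted among them. Of the 16, 1 passed in erlotinib against sunitinib (6.25%, beside 11.9% of all genes). It was Stradb, a pseudokinase that binds and activates LKB1, higher in erlotinib by 0.39 ± 0.06 on the log2 scale (edgeR adjusted p = 0.00442). Stradb was at 88.9, 82.9 and 81.6 CPM in control and 84.7, 79.1 and 76.0 CPM in sunitinib. It was at 94.4, 93.0 and 98.1 CPM in sorafenib and 101, 103 and 110 CPM in erlotinib. The erlotinib libraries were the highest of the 12. Ppm1e, a phosphatase that acts on AMPK in cell studies, passed the 4-group test of edgeR (adjusted p = 0.0378) and none of its 6 pairwise comparisons, with 34.1 ± 0.991 CPM in control and 50.3 ± 7.59 CPM in sorafenib (SD, n = 3).

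Of 11 kinases related to AMPK that LKB1 also activates, 3 passed in erlotinib against sunitinib and all 3 were higher (27.3%, beside 11.9% of all genes). Snrk, a kinase known for a role in heart metabolism, was at 139, 141 and 160 CPM in sunitinib and 232, 220 and 233 CPM in erlotinib (log2 0.64 ± 0.12, edgeR adjusted p = 0.00801). Nuak1 was at 31.2, 32.0 and 29.1 CPM in sunitinib and 57.2, 118 and 82.2 CPM in erlotinib, a log2 fold change of 1.48 ± 0.28 (adjusted p = 0.0122). Sik1, a kinase induced by cAMP, was at 67.4, 34.2 and 26.2 CPM in sunitinib and 117, 110 and 163 CPM in erlotinib (log2 1.61 ± 0.41, adjusted p = 0.0379). The Sik1 call held in 4 of 12 fits that left out 1 library and was lost with the atrial score as a covariate (adjusted p = 0.0765). In control, Nuak1 was at 27.4, 52.5 and 53.7 CPM and Sik1 at 30.8, 78.6 and 58.4 CPM, so that Control_1365 was lowest for both, as for Ppargc1a. For both, every control library was below every erlotinib library, where 20.6% of all genes had no overlap. In erlotinib against control 0 of these 11 kinases passed in edgeR (lowest adjusted p = 0.103), where 0.29% of all genes did. DESeq2 passed Nuak1 and Snrk in that comparison, where it passed 2.73% of all genes.

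Of 19 AMPK substrates, 4 passed in erlotinib against sunitinib and all were lower in erlotinib (21.1%, beside 11.9% of all genes). Gys1, muscle glycogen synthase, was at 205, 199 and 204 CPM in sunitinib and 169, 163 and 173 CPM in erlotinib (log2 -0.27 ± 0.07, edgeR adjusted p = 0.0346). Control stood at 175, 150 and 156 CPM, so erlotinib lay within the control range of Gys1 and sunitinib above it. Sorafenib, at 223, 216 and 192 CPM, was also above control. Of all genes, 14.6% had no overlap with control in sunitinib and 16.3% in sorafenib. Against control edgeR passed 0 of the 19 substrates in sunitinib (lowest adjusted p = 0.234) and 0 in sorafenib (0.0770). DESeq2 passed Gys1 in both, where it passed 0.61% of all genes in sunitinib and 1.30% in sorafenib. Gys1 passed in erlotinib against sorafenib (log2 -0.32 ± 0.07, edgeR adjusted p = 0.0399). With 1 library left out, Gys1 passed in 6 of 12 fits against sunitinib and 3 of 12 against sorafenib, and with the atrial covariate in neither (edgeR adjusted p = 0.0566 and 0.0529). The other 3 were Eef2k, which restrains translation elongation (log2 -0.56 ± 0.15), Hdac4, a class IIa deacetylase (log2 -0.62 ± 0.16), and Tbc1d4, which regulates glucose transporter traffic (log2 -0.31 ± 0.08).

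Of the other lists, 4 had 1 or 2 genes that passed in erlotinib against sunitinib, where 11.9% of all genes did. Of 14 genes of malonyl-CoA and fatty acid entry 1 passed (7.14%), Cpt1a, the liver form of carnitine palmitoyltransferase (log2 -0.36 ± 0.10, edgeR adjusted p = 0.0373). Of 14 genes of the adenylate and phosphocreatine system 1 passed (7.14%), Slc25a5, an ADP/ATP carrier (log2 0.24 ± 0.07, adjusted p = 0.0483). Of 23 PGC-1 partners 2 passed (8.70%), Esrrb, an estrogen-related receptor (log2 -0.40 ± 0.09), and Pprc1, a PGC-1 relative (log2 0.42 ± 0.11). Of 24 PGC-1 and estrogen-related receptor target genes 0 passed in edgeR, with 1 at an unadjusted p under 0.05 (28.1% of all genes). Of these 24, 0 passed in DESeq2, where 14.4% of all genes did. In limma on the scaled signal plus 1 also 0 passed, where 12.7% of all genes did. Of 16 mTORC1 genes 2 passed in edgeR (12.5%), both higher. They were Gatsl3, now named Castor1, an arginine sensor of mTORC1 (2.67, 3.29 and 3.59 CPM in sunitinib and 8.96, 10.1 and 11.8 CPM in erlotinib, log2 1.69 ± 0.32), and Ddit4, an mTORC1 inhibitor induced by stress and glucocorticoids (log2 2.88 ± 0.78). Ddit4 spread widely in control, at 22.7, 216 and 77.8 CPM.

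**Figure D4:**
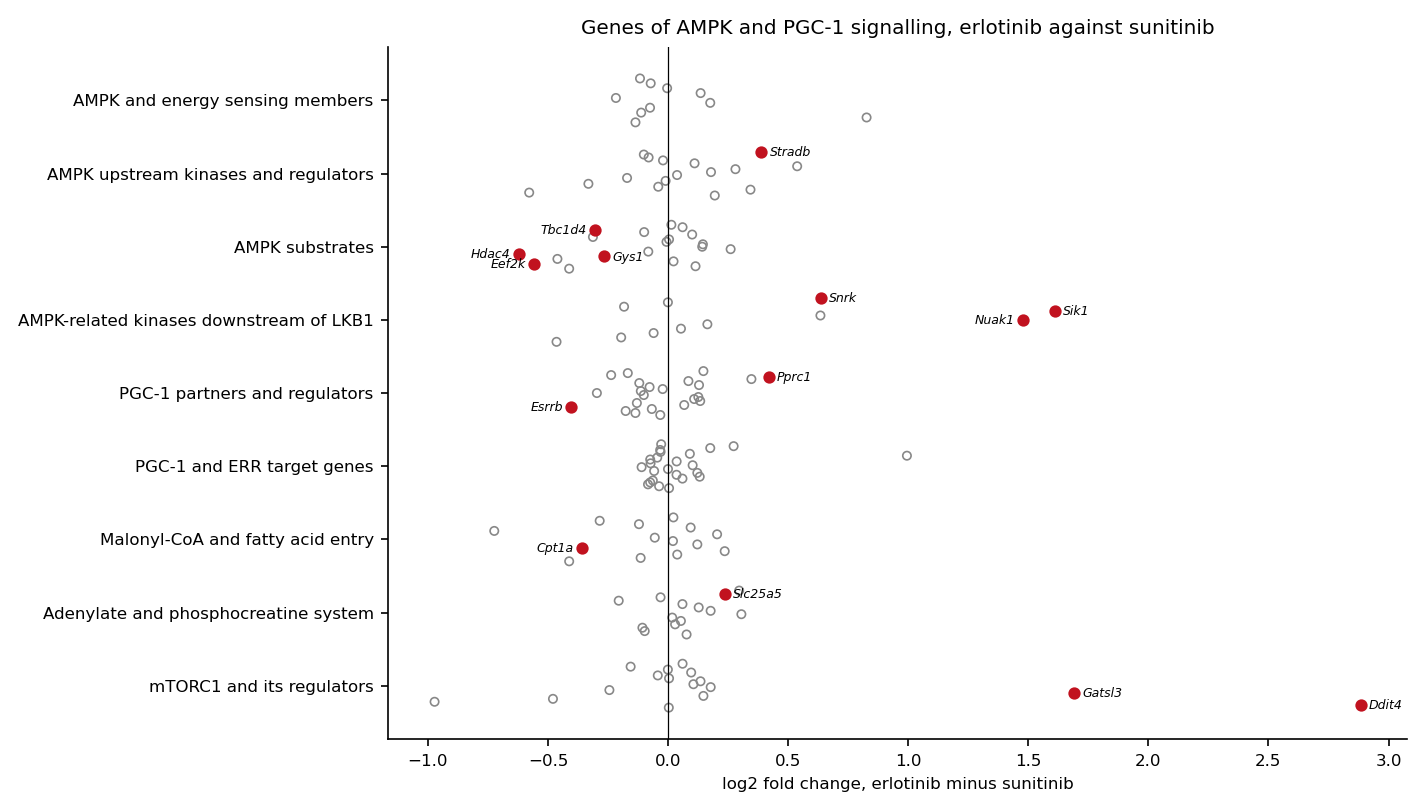
Log2 fold change of each gene, erlotinib minus sunitinib (horizontal axis), in the 10 genes and 8 further lists (rows); filled points passed the edgeR test over all genes and open points did not. The 14 filled points include Ddit4 at 2.88 and Hdac4 at -0.62.

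Stradb, Snrk and Gatsl3 passed in each of 12 fits that left out 1 library, and Nuak1 in 11 of 12, missing it without Sunitinib_1370 (edgeR adjusted p = 0.0501). The other 10 genes lost the call more often: Esrrb passed in 10 of 12, Pprc1 in 8, Cpt1a, Hdac4 and Tbc1d4 in 7 each, Eef2k and Gys1 in 6 each, Sik1 in 4, Slc25a5 in 3 and Ddit4 in 2. Gatsl3 in erlotinib against sorafenib passed in 6 of 12. Atrium and conduction markers, 11 of 12 tested and none at 0, differed between the same groups. In erlotinib against sunitinib 5 of 11 passed (45.5%, beside 11.9% of all genes), 4 of them lower in erlotinib. The summed level of all 12 listed was 241 to 1035 CPM in sunitinib and 323 to 632 CPM in erlotinib. With the atrial score as a covariate, 9 of the 14 genes passed, and Cpt1a, Ddit4, Gys1, Sik1 and Slc25a5 did not. Of the endothelial markers, 12 of 12 tested and none at 0, 3 passed in erlotinib against sunitinib (25%), all 3 higher in erlotinib. The list as a whole did not move 1 way, with 8 log2 fold changes above 0 and 4 below (median 0.07). Its sums overlapped, at 1096 to 1442 CPM in sunitinib and 1253 to 1343 CPM in erlotinib. Of 6 brown fat markers tested (10 listed, Zic1 at 0) 1 passed (16.7%) and was higher in erlotinib. The sums of all 10 listed were 1362 to 1635 CPM in sunitinib and 1451 to 1731 CPM in erlotinib. Of 12 cardiomyocyte markers 1 passed (8.33%, less than the 11.9% of all genes) and was lower in erlotinib. The part of endothelial and brown fat cells in these 14 genes was not tested.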

How the data were processed

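Polyadenylated RNA from mouse hearts was sequenced in stranded libraries, per the labels. The submitters' processing notes name RSEM, Picard 1.88, SAMtools 1.2 and build mm9; of the aligner and the annotation release nothing is given in the sources used here. For each library the deposited values are RSEM expected counts, TPM, a mean transcript length per gene and a scaled signal, which by the authors' scaling equals the expected count times 1 factor per library.

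Expected counts were rounded, filtered with filterByExpr and TMM-normalised, and tested with the quasi-likelihood method of edgeR 4.0.16 (R 4.3.3), in 1 model of all 12 libraries and 4 group coefficients. Levels of single genes are TMM-normalised CPM, and sums of markers are CPM without TMM normalisation. Fold changes are on the log2 scale with the SE of the fit, tests were two-sided, and p values were adjusted by Benjamini-Hochberg over all 13440 tested genes. The biological coefficient of variation was 0.128. Shares of TPM were compared by exact permutation of libraries. DESeq2 1.42.0 and limma 3.58.1 on log2 of the deposited signal plus 1 or 10 were alternatives, as were RLE normalization, no filter, fits without the 20 most abundant genes or with the compared groups alone, an atrial marker score as covariate, and leaving out libraries. On simulated data for sunitinib against control, 72 of 100 genes changed 2-fold and 48 of 100 changed 1.5-fold were recovered (13315 genes). Smaller changes were not simulated, and in this comparison the 10 genes ran only from 0.857-fold (Ppargc1a) to 1.32-fold (Ppargc1b).

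The 10 genes and the lists were chosen with earlier results of these data known. Named genes are the 10, list members that passed a comparison or the 4-group test, Acaca and Prkag3, which complete the sums behind 2 shares, and the 3 most similar genes for Prkaa2, Ppargc1a and Acacb. The labels do not say outright that each library is a separate animal, so p values measure only the spread between libraries, which may be technical. Promoters come from RefSeq (GRCm38.p6), a build other than the authors', and serve as sequence only.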

Additional observations from a re-analysis of the deposited data

How the results depend on the processing

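No paired analysis was possible because the groups share no replicate numbers. Of the counts of the 10 genes that passed, 1 changed: in erlotinib against sunitinib it was 1 (Ppargc1a, log2 0.83) with DESeq2 and 0 to 1 with 1 library left out, the 1 arising without Control_1365. The 5 shares are summarised by the range of their group means, which cannot be negative. Their staying on the same side under the alternatives run is therefore no test of them. Of 32 fold changes recomputed under 21 alternatives, 18 kept their sign and 14 changed it, the largest of them 0.16 in size; the cause was not tested. With the atrial score as a covariate, sorafenib against control was -0.13 for Prkab2 and 0.0039 for Prkag2, Prkag1 was 0.0022 in sunitinib and 0.010 in erlotinib, and Prkab2 was -0.16 in erlotinib. Without Control_1366 and Sunitinib_1370, Prkab1 was -0.030 in sunitinib, Prkaa2 0.0039, Stk11 -0.0094 and Ppargc1a 0.14 in sorafenib, and Prkag1 0.014 in erlotinib. With limma on signal plus 1 or plus 10, Stk11 was -0.0043 and -0.0043 and Ppargc1a 0.031 and 0.031 in sorafenib, and Prkab2 was -0.010 and -0.010 in erlotinib. With no filter, Prkag1 in erlotinib was 1.07e-05. With 1 library left out, the ranges in sunitinib were -0.067 to 0.063 for Prkaa1, -0.099 to 0.0037 for Prkaa2, -0.042 to 0.16 for Prkab1, -0.23 to 0.039 for Prkab2 and -0.036 to 0.012 for Prkag1. In sorafenib they were -0.047 to 0.046 for Prkaa1, -0.063 to 0.039 for Prkaa2, -0.074 to 0.0041 for Prkag2, -0.012 to 0.052 for Stk11 and -0.28 to 0.15 for Ppargc1a. In erlotinib they were -0.026 to 0.10 for Prkab2, -0.040 to 0.014 for Prkag1 and -0.040 to 0.025 for Stk11.

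The 14 other pathway genes that passed in erlotinib against sunitinib were recounted after the data were seen. The count was 18 with DESeq2 (13.7%, beside 14.4% of all genes), 9 with the atrial covariate (6.87% beside 9.37%), 6 without Control_1366 and Sunitinib_1370 (4.58% beside 7.27%), and 5 to 16 with 1 library left out (3.82% to 12.2%, beside 2.97% to 12.5%). It was 5 without Sunitinib_1369, Sunitinib_1370, Erlotinib_1375 or Erlotinib_1376 and 7 without Erlotinib_1374. Over all genes DESeq2 passed 82, 175 and 367 in sunitinib, sorafenib and erlotinib against control, and edgeR 0, 1 and 39. At this depth and with 3 libraries a group, small changes may be missed.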
